A study of Mus musculus with 8 samples.

Results

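Transcripts of 27 mouse genes of cholesterol synthesis, uptake and efflux were followed through the immune cells of MC38 tumours. The genes were taken by symbol from a fixed list, and all 27 were found among the 27405 genes that at least 1 of the 4 matrices lists. The list holds 18 enzymes of synthesis. Of these, 9 lead from acetyl-CoA to squalene epoxide (Acat2, Hmgcs1, Mvk, Pmvk, Mvd, Idi1, Fdps, Fdft1 and Sqle), and 9 lead from there through lanosterol to cholesterol (Lss, Cyp51, Tm7sf2, Msmo1, Nsdhl, Hsd17b7, Ebp, Sc5d and Dhcr7). A further 3 genes control the synthesis programme (Srebf2, Scap and Insig1), 3 serve uptake and transport (Stard4, Mylip and Npc1), and 3 belong to the liver X receptor (LXR) and efflux arm (Nr1h3, Abca1 and Abcg1).

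MC38 is a mouse colon carcinoma line. Immune cells carrying CD45 were sorted from MC38 tumours, with the genotype given as wild-type in all groups, and their polyA RNA was counted in droplets. There were 2 libraries labelled control and 2 labelled LNP-Sirpa, a treatment that the series title ties to degradation of SIRPα, an inhibitory receptor of phagocytes, in the tumour. The labels give no age, dose or time, do not say what the controls received, and do not say that replicates came from separate animals, so every p-value here describes the scatter among 4 libraries, which may be technical.

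Cells make cholesterol from acetyl-CoA by way of mevalonate, farnesyl diphosphate, squalene and lanosterol. When membrane cholesterol is low, SCAP escorts the transcription factor SREBP2, encoded by Srebf2, out of the endoplasmic reticulum to switch on the enzyme genes, and INSIG1 holds it back when cholesterol is plentiful. Oxysterols that accumulate with excess cholesterol activate LXR, which raises the efflux pumps ABCA1 and ABCG1 and the ubiquitin ligase MYLIP, whereas NPC1 exports lipoprotein cholesterol from lysosomes. Macrophages engulf dying cells and are known for a large traffic of cholesterol, and dividing lymphocytes for making their own.

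The stretches upstream of 5 genes are shown because these are among the genes that carry the differences between cell types and subsets described below, 3 as synthesis enzymes (Hmgcs1, Mvd, Pmvk) and 2 as LXR targets (Mylip, Abca1). An upstream stretch was available for 21 of the 27 genes. Fdps, Fdft1 and Sqle, which also differ, have none, and neither do most of Abcg1, Nr1h3, Npc1 and Stard4. Each is the 150 bases before the RefSeq gene start on assembly GRCm38.p6, 5′ to 3′ on the strand of the gene, with matches to searched motifs in capitals. The counts themselves were made on GRCm39, so these coordinates are not those of the matrices.
Hmgcs1, chr13:119690201-119690350, plus strand: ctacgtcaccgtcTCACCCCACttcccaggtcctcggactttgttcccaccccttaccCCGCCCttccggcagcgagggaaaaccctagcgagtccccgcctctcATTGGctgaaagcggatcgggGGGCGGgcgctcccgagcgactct
Mvd, chr8:122443423-122443572, minus strand: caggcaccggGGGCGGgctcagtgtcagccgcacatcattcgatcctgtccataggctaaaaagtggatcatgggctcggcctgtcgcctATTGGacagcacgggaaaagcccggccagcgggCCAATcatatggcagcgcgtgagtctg
Pmvk, chr3:89454391-89454540, plus strand: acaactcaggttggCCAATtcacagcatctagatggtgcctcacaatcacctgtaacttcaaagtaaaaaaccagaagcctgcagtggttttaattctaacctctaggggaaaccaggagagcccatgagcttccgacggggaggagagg
Mylip, chr13:45389592-45389741, plus strand: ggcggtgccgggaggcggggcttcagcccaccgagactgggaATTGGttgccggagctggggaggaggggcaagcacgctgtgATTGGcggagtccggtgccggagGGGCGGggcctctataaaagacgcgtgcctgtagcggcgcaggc
Abca1, chr4:53159896-53160045, minus strand: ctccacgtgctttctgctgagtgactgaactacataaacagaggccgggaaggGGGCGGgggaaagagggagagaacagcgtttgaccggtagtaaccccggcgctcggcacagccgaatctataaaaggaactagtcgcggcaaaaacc

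Promoter windows of 300 bases, 250 before to 50 after the start, were available from RefSeq for 21 of the 27 genes, and both strands were searched. The CCAAT box, written CCAAT, a site of the factor NF-Y that acts beside SREBP2, was found for 14 of the 15 synthesis enzymes with a window and for 17 of all 21 genes. The same letters occur in windows of 41.1% of 27025 genes. The GC box, written GGGCGG, was found in 14 of the 15 and in 19 of the 21, and for 38.2% of all genes. A sterol regulatory element of the form TCACNCCAC was found in the Hmgcs1 window, where it begins 137 bases before the start, in no other of the 21, and for 1.44% of all genes. An LXR direct repeat of the form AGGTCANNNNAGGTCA was found for none of the 21 genes and for 0.0148% of all genes. The 21 do not include every gene of the LXR and efflux arm. Only exact matches were searched, and 4 of all 27025 genes have such a match. The search therefore cannot tell whether a window holds an LXR site with other letters. No motif matches overlapped in the windows of these 21 genes, and a match is a description of letters and not of binding. A gene was counted if the window of any of its listed starts had a match. Pmvk has 2 listed starts, and the stretch printed above is that of the first.

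Cells were assigned to gates by the unique molecular identifiers (UMIs, counted RNA molecules) of fixed marker genes, none of which is among the 27. The minimum marker UMIs of each gate were set after the marker sums, but not the 27 genes, had been seen. The 4 libraries held 7504, 10876, 10332 and 9005 cells after filtering (control 1, control 2, LNP-Sirpa 1 and LNP-Sirpa 2, the order used throughout). Their median UMIs were 7040, 6537, 5926 and 6031. Of these 71.5%, 72.0%, 54.7% and 64.5% fell into a gate. Droplets with both T-cell and phagocyte markers made up 4.38%, 9.18%, 13.1% and 6.49% of filtered cells and stayed out of all gates. The monocyte/macrophage gate held 4881, 7050, 3880 and 4765 cells with 24723266 to 49223288 UMIs per library, and the other gates were far smaller. They held 59, 316, 565 and 443 CD8 T cells, 86, 112, 358 and 271 regulatory T cells, 123, 89, 324 and 108 natural killer (NK) cells, 75, 101, 101 and 23 type 1 dendritic cells, 89, 101, 155 and 36 mature dendritic cells, and 33, 34, 256 and 153 neutrophils. Each gate was checked against its defining markers. The median cell of the monocyte/macrophage gate had 84 UMIs of 11 macrophage markers. The median was 7 in the CD8 T, 6 in the regulatory T, 8 in the NK, 12 in the type 1 dendritic, 7 in the mature dendritic and 11 in the neutrophil gate. These UMIs were not scaled to the total of a cell. Neutrophil-gate cells had median totals of 1998.5 to 2990 UMIs per library, against 5153.5 to 6792 in the monocyte/macrophage gate. The scaled macrophage markers of the neutrophil gate are given below. Levels are UMIs per 1000000 (CPM) of the summed UMIs of a library and gate, scaled with TMM (trimmed mean of M-values, which equalises the bulk of genes between libraries). Tests are edgeR quasi-likelihood F tests on those sums over all genes, with Benjamini-Hochberg adjustment and a threshold of 0.05, and fold changes are log2 values ± SE.

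In the monocyte/macrophage gate all 27 genes were detected in every library, with UMI totals from 116 for Lss, which closes squalene epoxide into lanosterol, to 13090 for Abca1. Hmgcs1, the enzyme that makes HMG-CoA at the entry to the mevalonate route, stood at 81.9, 97.9, 79.5 and 76.9 CPM. Fdps, which makes farnesyl diphosphate, stood at 76.0, 60.4, 44.6 and 92.9 CPM, the widest ratio of highest to lowest value among the 18 enzymes, with its lowest and highest values both in LNP-Sirpa libraries. Srebf2 stood at 88.0, 85.9, 68.4 and 75.3 CPM. Abca1, which loads cholesterol onto lipid-poor apolipoprotein, stood at 183, 260, 237 and 313 CPM, and Nr1h3, which encodes LXRα, at 8.44, 8.17, 14.5 and 8.69 CPM. The plot of levels by gate shows that the enzymes were present in lymphocytes and dendritic cells as well. Nr1h3 outside the monocyte/macrophage gate rested on at most 15 UMIs per library and gate, too few to set a level. In the mature dendritic gate Nr1h3 had a single UMI over all 4 libraries, and in the type 1 dendritic gate 1 UMI in each.

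**Figure D1:**
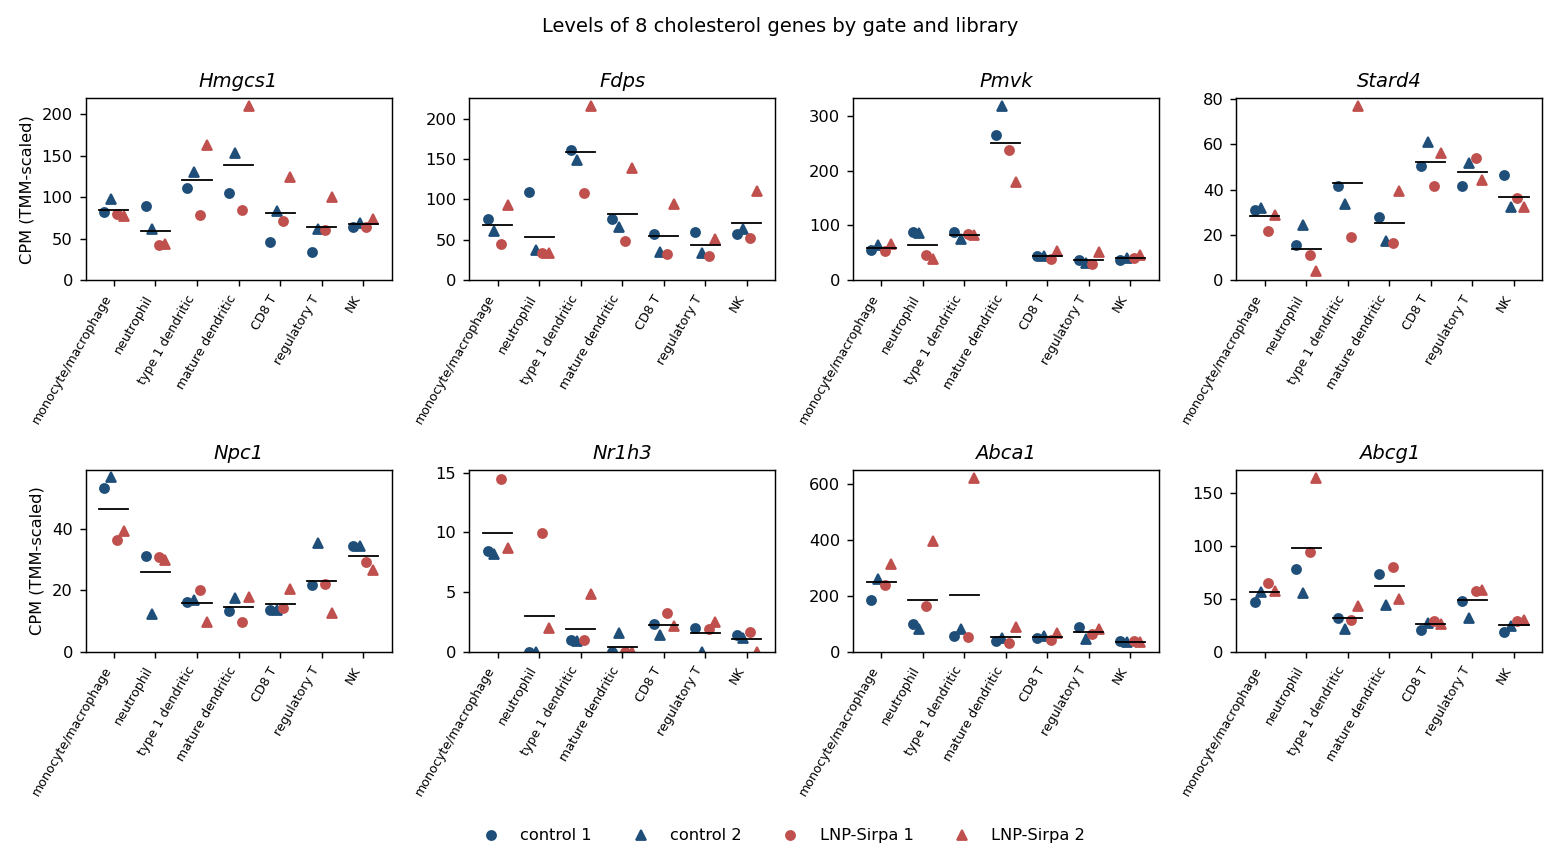
Levels of 8 genes (TMM-scaled CPM, vertical axis from 0) in 7 marker gates. Each point is 1 library (circles replicate 1, triangles replicate 2; blue control, red LNP-Sirpa) and each black line the mean of the 4. Abca1 in the type 1 dendritic gate has 3 points from 53.6 to 79.5 CPM and 1 at 619 CPM, the library with 23 cells.

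Macrophages held more transcripts of efflux and lysosomal transport genes than CD8 T cells did, and less Stard4. In the comparison of the monocyte/macrophage gate with the CD8 T gate, with the library as a block, 15 of the 27 genes passed the test, 11 higher and 4 lower in the monocyte/macrophage gate. Of all 13325 genes tested, 52.9% passed, 28.9% higher and 23.9% lower, so a share of 15 in 27 is near the background. All 3 genes of the LXR and efflux arm were higher. Abca1 stood at 50.4, 55.0, 40.5 and 66.4 CPM in the CD8 T gate against the values above in macrophages. Its ranges in the 2 gates did not overlap, and the difference was 2.33 ± 0.12 (adjusted p = 5.49e-09). Abcg1, the pump that passes cholesterol to lipoprotein particles, stood at 47.3, 56.4, 65.0 and 57.4 CPM in macrophages and at 20.6, 27.3, 29.3 and 26.5 CPM in CD8 T cells. Every macrophage value lay above every CD8 T value (1.17 ± 0.13, adjusted p = 3.51e-06). Nr1h3 had 1, 3, 15 and 6 UMIs in the CD8 T gate, and the fitted difference was 2.21 ± 0.27 (adjusted p = 1.28e-05).

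Transcripts of macrophage markers were also counted in CD8 T cells. The 11 macrophage markers reached, per marker, a median of 8.67% to 15.7% of their macrophage level in the CD8 T gate (range over markers and libraries 7.06% to 28.7%). Abca1 and Nr1h3 stood at a median of 21.6% and 24.4% of their macrophage levels there, Npc1 at 32.1%, Abcg1 at 46.6% and Tm7sf2 at 48.2%. The part of free macrophage RNA in these low levels was not tested.

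Among transport genes, Npc1 stood at 53.3, 56.9, 36.5 and 39.3 CPM in macrophages and at 13.7, 13.6, 14.2 and 20.3 CPM in CD8 T cells, without overlap (1.52 ± 0.18, adjusted p = 1.43e-05). Mylip was higher in macrophages by 0.82 ± 0.23. Stard4, which carries sterols between membranes, went the other way. It stood at 30.8, 32.0, 21.9 and 28.7 CPM in macrophages and at 50.4, 60.9, 41.6 and 56.2 CPM in CD8 T cells. All 4 CD8 T values were above all macrophage values (-0.85 ± 0.12, adjusted p = 5.22e-05). Of the 18 enzymes 6 were higher in macrophages and 2 lower, with a median difference of 0.15 over the 18 beside 0.04 over all genes. Tm7sf2, the sterol C14-reductase, stood at 25.6, 25.8, 19.9 and 24.2 CPM in macrophages and 11.5, 9.54, 10.9 and 12.3 CPM in CD8 T cells, again without overlap (1.12 ± 0.17). Mvd, the decarboxylase that makes isopentenyl diphosphate, followed with 0.90 ± 0.17, then Dhcr7, which carries out a last step of synthesis, with 0.82 ± 0.24. Pmvk (0.49 ± 0.12), Msmo1 (0.48 ± 0.16) and Fdps (0.45 ± 0.14) passed by smaller margins. Acat2, the thiolase that starts the route (-0.60 ± 0.20), Sc5d, a late desaturase (-0.53 ± 0.17), and Scap (-0.58 ± 0.17) were lower in macrophages. Without LNP-Sirpa replicate 1, 10 genes passed, and Acat2, Fdps, Msmo1, Mylip and Sc5d were no longer among them. Msmo1 was also lost without control replicate 1 (0.42) or control replicate 2 (0.47) and read 0.73 without LNP-Sirpa replicate 2, Fdps and Scap were lost without control replicate 2, and Acat2, Sc5d and Scap without LNP-Sirpa replicate 2, while Idi1 (-0.45) passed without control replicate 1 and Mvk (0.85) without LNP-Sirpa replicate 2. The cells of control replicate 1 in the CD8 T gate number 59, the fewest.

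Neighbouring genes of the same traffic were taken from lists by function, and of all genes 28.9% were higher in macrophages and 23.9% lower. Of 6 scavenger and lipoprotein receptors tested all 6 were higher in macrophages, among them Msr1, a scavenger receptor for modified lipoproteins (2.88 ± 0.15), and Lrp1, a large endocytic receptor (2.06 ± 0.11). Of 13 genes of storage, lysosome and oxysterol handling 10 were higher and 3 lower, with Npc2, the lysosomal partner of NPC1 (1.82 ± 0.10), and Ch25h, which makes 25-hydroxycholesterol (3.16 ± 0.18), named by their small p. Of 9 LXR partners and other targets 5 were higher and 1 lower, led by Apoc2 (2.89 ± 0.15) and Pltp, the phospholipid transfer protein (2.39 ± 0.13). The isoprenoid branch, which leaves the route before sterols, had 2 higher and 2 lower of 10, with Nus1 (1.13 ± 0.17) and Ggps1 (-1.23 ± 0.12) in opposite directions. Other sterol enzymes and SREBP processing genes had 1 higher and 2 lower of 10 (Cyb5r3 1.30 ± 0.12, Lbr -0.96 ± 0.16), and fatty acid synthesis 6 higher and 4 lower of 15, led by the desaturases Fads1 (2.44 ± 0.17) and Fads2 (2.36 ± 0.24).

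Mature dendritic cells, which carry the migration receptor Ccr7, held more Pmvk and Idi1 and less Fdps than type 1 dendritic cells. These 3 enzymes act between mevalonate and farnesyl diphosphate. Of 20 genes tested 4 passed, 3 higher and 1 lower in the mature gate, beside 21.7% of all 6994 genes, with 11.0% higher and 10.7% lower, so the count was near the background. Pmvk, the second kinase of the route, stood at 266, 318, 237 and 178 CPM in mature and at 87.5, 75.8, 85.0 and 81.6 CPM in type 1 cells. Each mature value was above each type 1 value (1.70 ± 0.22, adjusted p = 0.000538). Idi1, the isomerase 2 steps on, stood at 82.3, 86.9, 31.7 and 71.3 CPM in mature and 31.6, 26.2, 18.2 and 33.6 CPM in type 1 cells. The LNP-Sirpa replicate 1 value of the mature gate lay within the range of the type 1 gate, and within each library the mature value was the higher (1.39 ± 0.26, adjusted p = 0.00385). Fdps, which follows Idi1, stood at 75.7, 66.4, 48.9 and 139 CPM in mature and 161, 149, 108 and 216 CPM in type 1 cells, lower in the mature gate in every library (-0.92 ± 0.21, adjusted p = 0.0103). Abcg1 stood at 73.0, 44.2, 79.7 and 49.9 CPM in mature and 31.6, 21.5, 30.3 and 43.2 CPM in type 1 cells (1.16 ± 0.26, adjusted p = 0.0102). The Abcg1 and Fdps calls were lost without control replicate 1 (1.17 and -0.82, adjusted p = 0.0603 and 0.112), without control replicate 2 (1.24 and -0.79) or without LNP-Sirpa replicate 1 (1.01 and -0.87), and without LNP-Sirpa replicate 2 Scap also passed (-1.12). The filter on low counts removed 7 genes (Acat2, Lss, Nsdhl, Hsd17b7, Dhcr7, Scap and Nr1h3). The summed macrophage markers were alike in the 2 gates, from 1307 to 1545 CPM in mature and 1206 to 1655 CPM in type 1 cells.

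Outside the 27, Gramd1b, a carrier of plasma membrane cholesterol into the cell (2.65 ± 0.51), Npc2 (1.10 ± 0.15), and the LXR targets Arl4c (1.80 ± 0.26) and Smpdl3a (1.15 ± 0.24) were higher in mature dendritic cells. The lipid receptors Cd36 (-2.32 ± 0.42) and Scarb1 (-1.77 ± 0.41), the fatty acid genes Fasn (-1.39 ± 0.28) and Scd2 (-1.58 ± 0.33), and the sterol genes Lbr (-1.35 ± 0.33) and Rnf139 (-1.24 ± 0.39) were lower. By list, 2 of 10 fatty acid genes, 2 of 9 other sterol genes and 2 of 5 receptors were lower and none higher, 2 of 8 LXR partners were higher and none lower, and storage genes had 2 in each direction of 11. No gene of the isoprenoid branch passed, and of all genes 11.0% were higher and 10.7% lower.

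Cells with at least 10 UMIs of cycling markers were compared with cells of the same gate and library with at most 2. Cycling CD8 T cells numbered 6, 21, 84 and 43, and control replicate 1 was left out of that fit because it has fewer than 20. Of 25 genes tested 2 passed, both higher in cycling cells, beside 12.8% of 8848 genes (7.92% higher, 4.88% lower). Fdft1, the squalene synthase that commits the route to sterols, stood at 90.6, 51.5 and 83.1 CPM in cycling and at 40.9, 25.1 and 53.2 CPM in other CD8 T cells (control 2, LNP-Sirpa 1 and LNP-Sirpa 2). It was higher in cycling cells of each library (0.90 ± 0.20, adjusted p = 0.00102). Ebp, a late sterol isomerase, stood at 68.9, 80.0 and 87.1 CPM against 47.4, 46.5 and 62.9 CPM (0.60 ± 0.18, adjusted p = 0.0165). Cycling cells of these libraries had medians of 11344.5 to 12096 UMIs and the others 4632.5 to 5712. In CD8 T cells of 8000 to 16000 UMIs alone, a range added after seeing the data, Fdft1 passed (1.05) and Ebp did not (0.76, adjusted p = 0.0904). The median of the genes tested was 0.26 in the whole gate and -0.02 in that range, and the DESeq2 Wald test called neither gene. The Ebp call was lost in 6 of 9 alternatives, among them the fit without LNP-Sirpa replicate 1 (0.48).

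Cycling macrophages numbered 662, 655, 225 and 379, and 13 of 27 genes passed, 3 higher and 10 lower, beside 36.9% of 13079 genes (2206 higher, 2619 lower). All 3 genes of the LXR and efflux arm were lower in cycling cells. Markers of other subsets differed too, and not all in 1 direction. The median cycling cell had 4 UMIs of the resident-like markers Folr2, Cbr2 and Fcrls. The median cell of the whole gate, where cells hold fewer UMIs, had 1. The lipid-associated markers summed to 36.4, 49.1, 65.2 and 53.5 CPM in cycling and 79.4, 139, 102 and 101 CPM in other macrophages, the inflammatory markers to 57.4, 104, 132 and 182 CPM against 146, 217, 656 and 372 CPM, and their part was not tested. Abca1 stood at 126, 183, 162 and 239 CPM in cycling and 213, 283, 252 and 325 CPM in other macrophages. The ranges overlapped between libraries, but within every library the cycling value was the lower (-0.70 ± 0.07, adjusted p = 2.51e-08). Abcg1 stood at 41.8, 35.6, 54.0 and 38.9 CPM against 52.9, 62.8, 66.8 and 60.5 CPM (-0.62 ± 0.08). Mylip stood at 26.3, 32.9, 23.3 and 22.9 CPM against 34.5, 51.1, 34.0 and 37.5 CPM, lower without overlap (-0.65 ± 0.08), and Nr1h3 differed by -0.67 ± 0.14. Among the enzymes Ebp (86.3, 78.4, 78.1 and 83.2 CPM against 62.3, 61.4, 52.9 and 65.7 CPM) was higher without overlap (0.34 ± 0.07), and Acat2 (0.41 ± 0.12) and Mvk, the first mevalonate kinase (0.39 ± 0.10), also rose. Mvd stood at 25.2, 19.7, 19.1 and 32.9 CPM against 30.6, 31.0, 23.7 and 32.6 CPM, lower in 3 of 4 libraries (-0.40 ± 0.10). Lss (-0.44 ± 0.16), Cyp51 (-0.24 ± 0.07), Msmo1 (-0.22 ± 0.07), Hmgcs1 (-0.22 ± 0.07) and Insig1 (-0.32 ± 0.10) were lower by small amounts. Without control replicate 1, 8 genes passed (Acat2, Hmgcs1, Insig1, Lss and Msmo1 lost), without control replicate 2, 7 (Cyp51, Hmgcs1, Insig1 at -0.21, Lss, Msmo1 and Mvd at -0.27 lost), without LNP-Sirpa replicate 2, 12 (Acat2 lost), and without LNP-Sirpa replicate 1, 14 (Npc1 gained). Cycling macrophages had a median of 9658 to 12475 UMIs per cell and the others 4815.5 to 6101. Among macrophages of 8000 to 16000 UMIs 11 of the 27 passed, as did 3421 of 11385 genes, and Abca1 (-0.42), Abcg1 (-0.76), Mylip (-0.60), Mvd (-0.47) and Ebp (0.25) were among the 11. Mvk (0.27, adjusted p = 0.150), Lss (-0.50, adjusted p = 0.134) and Hmgcs1 (-0.20, adjusted p = 0.0662) did not pass there, and Insig1 turned to 0.03 (adjusted p = 0.904).

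Lbr, a nuclear envelope protein with sterol C14-reductase activity, stood out among other sterol enzymes, at 64.6, 72.2, 60.6 and 59.9 CPM in cycling and 21.2, 18.7, 17.3 and 15.6 CPM in other macrophages (1.74 ± 0.08), and it was higher in cycling CD8 T cells too (1.16 ± 0.19). Tmem97, a sterol-responsive membrane protein, was higher in cycling cells of both kinds (0.71 ± 0.07 in macrophages, 1.49 ± 0.26 in CD8 T cells). The lipid droplet coat gene Plin2 (-0.77 ± 0.07) and the receptor Olr1 (-1.04 ± 0.12) were lower in cycling macrophages, where 36.9% of all genes passed in either direction. By list, 9 of 12 storage genes were lower and 1 higher, 5 of 10 LXR partners lower and 1 higher (Smpdl3a -0.47 ± 0.07, Apoc2 -0.43 ± 0.07), 4 of 7 receptors lower and none higher (Lrpap1 -0.32 ± 0.07), 3 of 15 fatty acid genes lower and 2 higher (Lpin1 -0.79 ± 0.14, Fads2 1.43 ± 0.11), and 4 of 10 other sterol genes higher and none lower (Acat1 0.35 ± 0.07). In cycling CD8 T cells Lpin1 (-1.15 ± 0.32), Npc2 (-0.43 ± 0.11), Msr1 (-0.87 ± 0.21) and Smpdl3a (-0.65 ± 0.22) were lower. Msr1 and Npc2 were far higher in the monocyte/macrophage gate than in the CD8 T gate (2.88 ± 0.15 and 1.82 ± 0.10). The part of free macrophage RNA in their CD8 T values was not tested.

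Macrophages with at least 4 UMIs of Gpnmb, Acp5 and Atp6v0d2, markers of lipid-associated macrophages, held more Abcg1 and Nr1h3 than the remaining macrophages and less of 6 synthesis enzymes, 3 of which also passed among cells of like UMI totals. They numbered 157, 400, 167 and 237, and 50.6% of them lay at or 1 UMI above the minimum. Of the 27 genes 9 differed from the remaining macrophages, 3 higher and 6 lower, beside 15.2% of 12878 genes (7.18% higher, 7.99% lower). Abcg1 stood at 82.1, 97.2, 91.1 and 99.0 CPM in the subset and 45.4, 52.9, 62.9 and 53.4 CPM in the rest. Every subset value exceeded every other value (0.92 ± 0.08, adjusted p = 3.93e-08). Nr1h3 stood at 15.8, 16.4, 18.7 and 16.3 CPM against 8.04, 7.46, 14.2 and 7.96 CPM, also without overlap (1.02 ± 0.15, adjusted p = 6.43e-05). Abca1, in contrast, stood at 155, 271, 201 and 271 CPM against 185, 260, 240 and 316 CPM, and its difference did not pass (-0.04 ± 0.06). Npc1 was higher by 0.28 ± 0.09.

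All 9 enzymes from acetyl-CoA to squalene epoxide had negative values in the lipid-associated subset, 4 of them past the threshold, with a median of -0.40 beside -0.02 over all genes. Hmgcs1 stood at 56.8, 63.9, 63.0 and 45.0 CPM against 83.7, 101, 80.9 and 79.5 CPM, lower without overlap (-0.49 ± 0.08, adjusted p = 0.000208). Cyp51, the lanosterol demethylase, stood at 30.2, 33.2, 34.3 and 29.7 CPM against 52.4, 58.5, 39.4 and 52.2 CPM, also lower without overlap (-0.56 ± 0.10, adjusted p = 0.000643). Sqle, the squalene epoxidase, stood at 18.5, 20.8, 14.6 and 17.8 CPM against 29.6, 26.7, 18.7 and 32.5 CPM (-0.45 ± 0.12), and Fdps at 49.2, 41.4, 45.8 and 52.2 CPM against 77.8, 62.1, 44.5 and 96.1 CPM (-0.44 ± 0.11). The Sqle value was the lower in each library, and the Fdps value in all but LNP-Sirpa replicate 1. Msmo1 (-0.43 ± 0.09) and Fdft1 (-0.40 ± 0.11) completed the 6. Without control replicate 1 Fdft1 (-0.28), Fdps (-0.39), Sqle (-0.39) and Npc1 (0.29) no longer passed and 5 genes remained, without LNP-Sirpa replicate 2 Fdft1, Fdps and Sqle were lost, and Npc1 was also lost without control replicate 2 or LNP-Sirpa replicate 1. Fdps was lost as well without control replicate 2, whereas Idi1 (-0.72) and Srebf2 (-0.34) passed without LNP-Sirpa replicate 1. Subset cells had a median of 9265 to 12010 UMIs and the rest 4984 to 6513.5. Within 8000 to 16000 UMIs Abcg1 (1.08), Nr1h3 (1.17), Cyp51 (-0.51), Hmgcs1 (-0.42) and Fdps (-0.52) passed, and so did Abca1 (0.34 ± 0.08, adjusted p = 0.0103), which turned from its value over all cells, beside 6.05% of 11294 genes. The other 3 of the 6 enzymes did not pass there, with Sqle at -0.36 (adjusted p = 0.266), Msmo1 at -0.29 (adjusted p = 0.205) and Fdft1 at -0.28 (adjusted p = 0.293), nor did Npc1 (0.37, adjusted p = 0.0675). The pair fit rescales the subset against the rest, which moved all its differences by 0.12 against the ratios of the printed CPM (0.15 for the monocyte subset below).

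Of 12 storage, lysosome and oxysterol genes 5 were higher in the same subset, 1 was lower and 6 did not pass, beside the 7.18% and 7.99% of all genes above. Lipa, the lysosomal acid lipase, stood at 125, 113, 113 and 109 CPM against 72.3, 73.7, 70.4 and 77.7 CPM (0.76 ± 0.07), and Npc2 differed by 0.54 ± 0.05. Of 10 LXR partners 5 were higher and none lower (Apoc2 0.65 ± 0.07, Smpdl3a 0.67 ± 0.09), and of 7 receptors 2 (Msr1 0.20 ± 0.06, Lrpap1 0.21 ± 0.07). Fatty acid synthesis had 3 lower (Elovl6 -0.98 ± 0.22 and Fads2 -0.71 ± 0.14 among them) and 1 higher of 15. No gene of the isoprenoid branch or of the other sterol genes passed.

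The monocyte subset, with at least 8 UMIs of monocyte markers that include Ly6c2, Plac8, Ccr2 and Vcan, held more of 6 synthesis enzymes than the remaining macrophages and less Abca1, Nr1h3 and Npc1. Its cells also had at most 3 UMIs of Folr2, Cbr2 and Fcrls and at most 3 of Gpnmb, Acp5 and Atp6v0d2. The subset was thus compared with cells that include all those above either maximum, the lipid-associated subset among them. It numbered 180, 216, 634 and 549 cells, 23.4% of them at or 1 UMI above the minimum. Of the 27 genes 9 differed, 6 higher and 3 lower, beside 17.6% of 12721 genes (10.1% higher, 7.51% lower). All 6 higher genes were enzymes, and 17 of the 18 enzymes had positive values, with a median of 0.34. Fdps stood at 121, 84.5, 48.2 and 116 CPM in the subset and 74.2, 59.6, 43.1 and 87.8 CPM in the rest, higher within each library (0.59 ± 0.09, adjusted p = 0.000568). Fdft1 stood at 49.2, 49.8, 37.8 and 47.9 CPM against 37.7, 38.6, 29.8 and 39.8 CPM (0.49 ± 0.08), Idi1 at 38.1, 30.1, 17.7 and 22.9 CPM against 21.3, 19.99, 18.1 and 20.3 CPM (0.53 ± 0.13), and Mvd at 50.7, 37.4, 22.4 and 36.2 CPM against 27.9, 28.6, 23.4 and 31.8 CPM (0.48 ± 0.13). For Idi1 and Mvd the excess lay in both controls and LNP-Sirpa replicate 2, while LNP-Sirpa replicate 1 was a little lower in the subset. Pmvk (0.44 ± 0.09) and Sc5d (0.44 ± 0.12) were the other 2. Abca1 stood at 112, 120, 183 and 184 CPM against 188, 270, 250 and 334 CPM, without overlap (-0.65 ± 0.10, adjusted p = 0.0012), and Nr1h3 (-0.58 ± 0.16) and Npc1 (-0.37 ± 0.09) were also lower. Without either control replicate 5 genes passed (Idi1, Mvd, Npc1 and Sc5d lost, with Mvd at 0.32 and Idi1 at 0.39 without control replicate 1). Without LNP-Sirpa replicate 1 there were 11 (Nr1h3 lost, and Cyp51, Hmgcs1 and Msmo1 gained), and without LNP-Sirpa replicate 2 there were 10 (Nr1h3 and Sc5d lost, and Abcg1, Mylip and Sqle gained). With the marker minimum doubled 4 passed, namely Abca1, Fdft1, Fdps and Npc1. Median UMIs were 7308.5 to 11412 in the subset and 4599.5 to 6447.5 in the rest. Within 8000 to 16000 UMIs 8 genes passed, beside 10.9% of 11154 genes, among them Fdft1 (0.47), Fdps (0.36), Pmvk (0.38), Hmgcs1 (0.35), Cyp51 (0.49) and Nr1h3 (-0.89), while Abca1 (-0.40, adjusted p = 0.126), Npc1 (-0.41, adjusted p = 0.0701), Idi1 (0.43), Mvd (0.35) and Sc5d (0.24) did not.

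**Figure D2:**
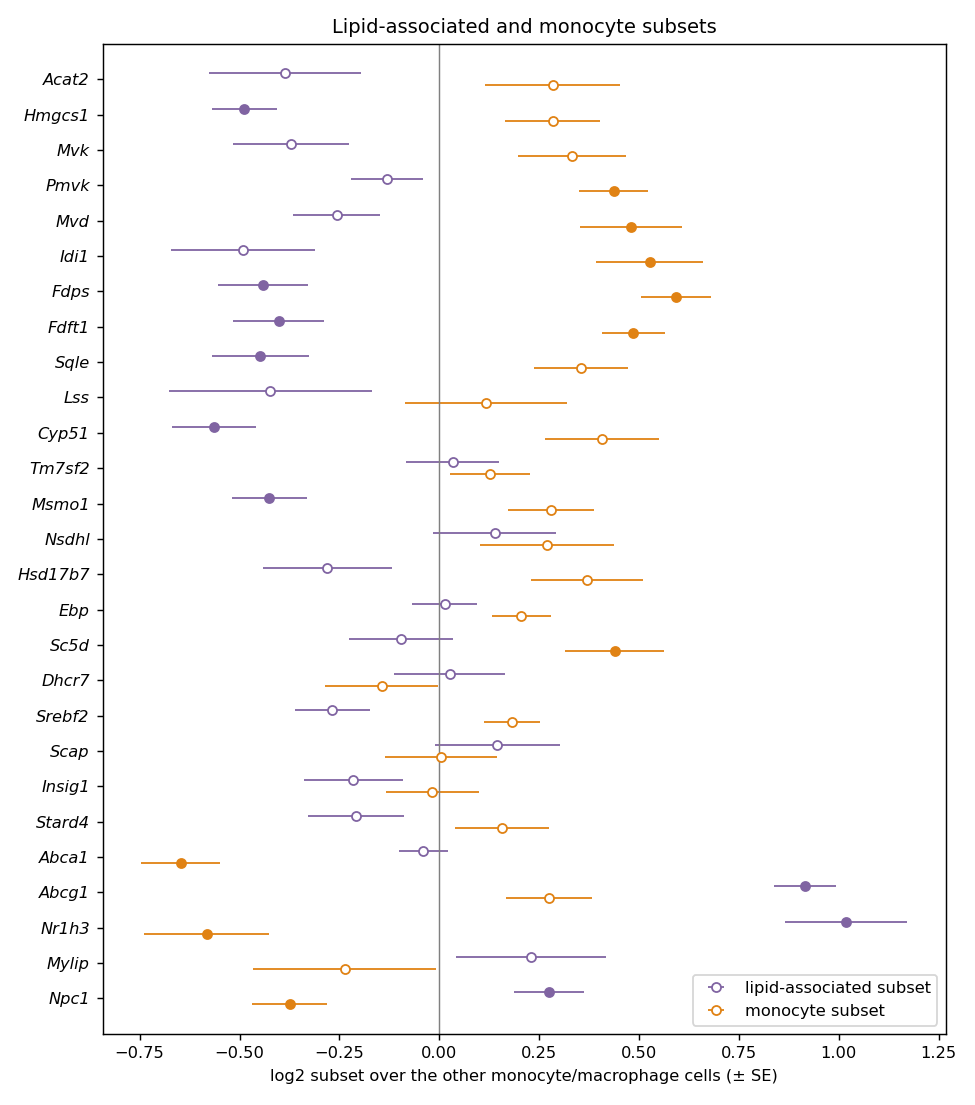
Log2 differences (horizontal axis, ± SE from edgeR) of the 27 genes in the lipid-associated subset (purple) and the monocyte subset (orange), each against the other monocyte/macrophage cells of the same 4 libraries. Filled points passed an adjusted p of 0.05. Abcg1 (0.92) and Nr1h3 (1.02) lie farthest right in the lipid-associated subset, and Fdps is at -0.44 in that subset and at 0.59 in the monocyte subset.

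The 2 subsets share most of their comparison cells, so their values are given side by side and the difference between them was not tested. The monocyte subset leaves out lipid-associated cells by definition, so the 2 are not defined independently. Outside the 27, Ch25h (-1.12 ± 0.14), Nceh1, a cholesterol ester hydrolase (-0.64 ± 0.08), Pltp (-0.45 ± 0.10), Fads1 (-0.60 ± 0.10), Pggt1b (-0.36 ± 0.10) and Pdss2 (-0.52 ± 0.15) were lower in the monocyte subset, and Scd2 (0.59 ± 0.08), Apoc2 (0.36 ± 0.08), Scarb1 (0.36 ± 0.10) and Lrpap1 (0.29 ± 0.07) higher. By list, fatty acid synthesis had 5 higher and 2 lower of 15, storage 4 lower of 12, the isoprenoid branch 2 lower of 10, receptors 2 higher of 6, and LXR partners 2 in each direction of 10. Of all genes 10.1% were higher and 7.51% lower.

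After LNP-Sirpa no gene of the 27 passed the edgeR test in any of 6 gates, nor the DESeq2 Wald test. Among the 27, unadjusted p-values under 0.05 numbered 3 in macrophages, 4 in neutrophils, 1 in regulatory T cells and 0 in the CD8 T, NK and dendritic gates. Over all genes such p-values numbered 2861 of 15414 in macrophages, 1061 of 4546 in neutrophils and 1194 of 9429 in the dendritic gate. In the monocyte/macrophage gate 1.38% of 15414 genes passed. Npc1 had the smallest p, with 53.3 and 56.9 CPM in the controls and 36.5 and 39.3 CPM after LNP-Sirpa. Both treated libraries were below both controls (-0.54 ± 0.14, adjusted p = 0.113). Acat2 followed with 11.4 and 9.78 CPM against 6.87 and 7.90 CPM (-0.52 ± 0.18, adjusted p = 0.206), and Dhcr7 with 17.8 and 16.1 CPM against 12.3 and 13.0 CPM (-0.42 ± 0.15, adjusted p = 0.224). Lss (6.75 and 6.68 CPM against 4.55 and 5.45 CPM, -0.42 ± 0.20, adjusted p = 0.319) and Sc5d (19.0 and 18.3 CPM against 13.1 and 16.4 CPM, -0.34 ± 0.17, adjusted p = 0.350) were the next, and in all 5 the groups did not overlap. Both treated libraries lay below both controls in 12 of the 27 genes, 9 of them enzymes, beside 26.2% of all genes, and above both controls in Abcg1 and Nr1h3, beside 24.4%. None of the following values passed. Of the 18 enzymes 17 had negative values, with a median of -0.17 beside -0.01 over all genes, although their summed level was highest in LNP-Sirpa replicate 2 (633, 648, 510 and 662 CPM). Srebf2 (-0.27 ± 0.15), Stard4 (-0.31 ± 0.17) and Mylip (-0.20 ± 0.21) were negative, and the receptor and pump genes of the LXR arm positive (Nr1h3 0.48 ± 0.26, Abca1 0.31 ± 0.25, Abcg1 0.24 ± 0.16, adjusted p from 0.386 to 0.567). The median of the 27 was -0.14 with all libraries, -0.07 without LNP-Sirpa replicate 1, where 11 of the 27 were positive in place of 5, and -0.35 without LNP-Sirpa replicate 2. Of the wider lists no gene passed in this gate.

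The make-up of the gate differed between the groups. The resident-like subset (markers Folr2, Cbr2 and Fcrls) held 1810 and 1702 cells in the controls and 232 and 72 after LNP-Sirpa, and the monocyte subset 180 and 216 against 634 and 549. A change in the gate's sum and a change in the share of a subset cannot be told apart from the sum itself, so the subsets were also fitted alone, an alternative added after seeing the data. In the inflammatory subset (Inhba, Thbs1 and Cxcl3, with 201, 439, 522 and 581 cells) 24 of the 27 values were negative. An unadjusted p under 0.05 was found for 15 of the 27, beside 1995 of all 10995 genes. None of the 27 passed after adjustment, and 2.83% of all genes did. Hmgcs1 stood at 83.0 and 98.8 CPM in its controls and 52.7 and 53.1 CPM after LNP-Sirpa (-0.79 ± 0.18, adjusted p = 0.0544). Srebf2 stood at 102 and 84.9 CPM against 48.9 and 60.8 CPM (-0.76 ± 0.20, adjusted p = 0.0746), and Cyp51 at 59.97 and 56.8 CPM against 26.1 and 41.5 CPM (-0.78 ± 0.24, adjusted p = 0.118). In each of these 3 the groups did not overlap, which held downward for 19 of the 27 genes and 14 of the 18 enzymes, beside 25.1% of all genes, and upward for Abca1 and Abcg1, beside 25.2%. Abca1 in these cells stood at 248 and 313 CPM against 398 and 465 CPM (0.62 ± 0.19, adjusted p = 0.125). In the monocyte subset alone 9 of the 27 had an unadjusted p under 0.05, beside 1722 of all 10650 genes. None of the 27 passed after adjustment, beside 2.9% of all genes. Cyp51 stood there at 81.0 and 79.1 CPM against 33.7 and 52.8 CPM (-0.89 ± 0.24, adjusted p = 0.0668), and Abca1 at 112 and 120 CPM against 183 and 184 CPM (0.66 ± 0.19, adjusted p = 0.0948). Without overlap 14 of the 27 lay lower and 2 higher there, beside 23.3% and 24.0% of all genes. In the resident-like subset alone 1 gene passed, beside 1.16% of all genes. It was Nr1h3, at 8.06 and 8.23 CPM against 20.9 and 19.4 CPM (1.32 ± 0.22, adjusted p = 0.0350). The summed UMIs of all genes there were 20032354 and 17431234 in the controls and 2672468 and 1028197 after LNP-Sirpa. The value of LNP-Sirpa replicate 2 thus rests on few UMIs of the gene. In the lipid-associated subset alone none passed, beside 0.313% of all genes, and Mylip had the smallest p, at 45.6 and 60.5 CPM against 22.4 and 27.6 CPM (-1.09 ± 0.25, adjusted p = 0.105). Median UMIs per cell differed between groups, with 11041 and 9487 in controls against 6450.5 and 7784 in the inflammatory subset. They were 11187 and 11412 against 7308.5 and 8920 in the monocyte subset. The resident-like subset had 9836.5 and 9202 against 10464.5 and 13949, and the lipid-associated subset 12010 and 9265 against 9980 and 11963. No treatment fit was limited to cells of like UMI totals, and the part of depth was not tested.

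**Figure D3:**
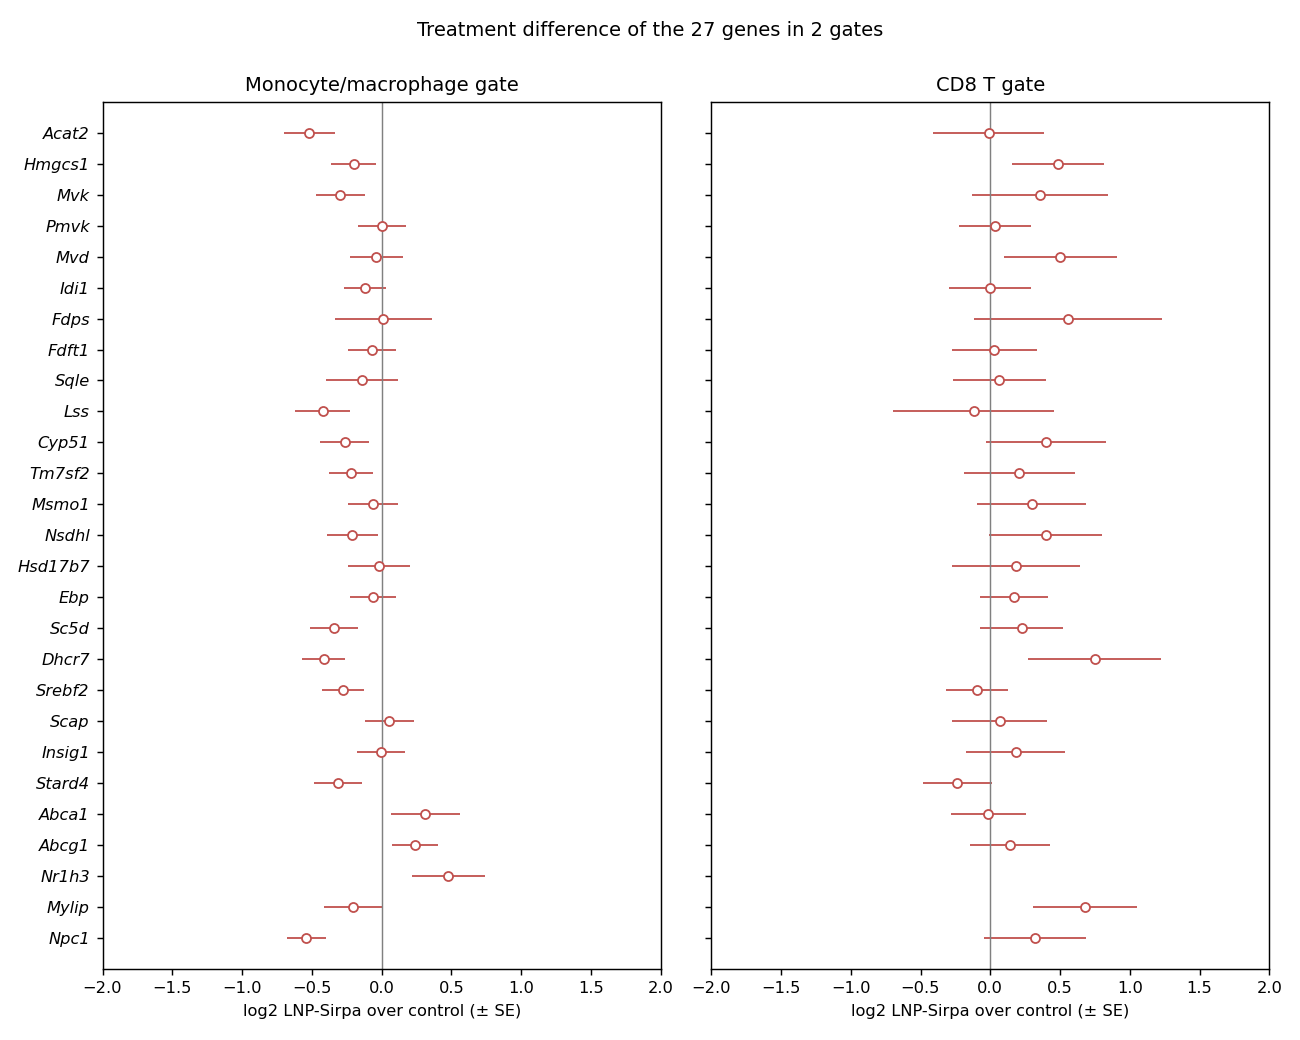
Log2 LNP-Sirpa over control (horizontal axis, ± SE from edgeR, 2 libraries per group) of the 27 genes in the monocyte/macrophage and CD8 T gates. All points are open, since none passed an adjusted p of 0.05. In the left panel 17 of 18 enzymes lie below 0 and Npc1 is lowest at -0.54, and in the right panel 20 of 26 genes lie above 0.

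In CD8 T cells 26 genes were tested and none passed, beside 0.44% of all genes, with 20 of 26 values positive (median 0.18, and -0.13 without LNP-Sirpa replicate 2). Regulatory T cells (22 tested, background 0.428%) gave Insig1 the smallest p, at 5.92 and 13.0 CPM against 21.1 and 28.4 CPM (1.34 ± 0.49, adjusted p = 0.437), on 3, 7, 45 and 34 UMIs. Hmgcs1 passed there without control replicate 2 (1.23, adjusted p = 0.0326). NK cells had 23 genes tested (0.0474%), and Sqle passed without LNP-Sirpa replicate 1 (1.52, adjusted p = 0.0377), its 4 values being 13.4, 20.3, 14.6 and 47.5 CPM. In the 2 dendritic gates together 25 genes were tested (0.0318%). None passed with all libraries, and Abca1 read 1.54 ± 0.87. Leaving out LNP-Sirpa replicate 1 brought it past the threshold (2.44, adjusted p = 5.79e-05), and leaving out LNP-Sirpa replicate 2 did so for Cyp51 (-1.04, adjusted p = 0.0395). In type 1 dendritic cells Abca1 stood at 56.0, 79.5, 53.6 and 619 CPM. In LNP-Sirpa replicate 2, the last of these, 3 of 23 cells gave 70 of 129 UMIs, and the inflammatory macrophage markers of that sum stood at 505 CPM against 28 to 158 CPM in the other libraries, whose part was not tested.

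Neutrophils had 12 genes tested, none passed, and 5.83% of all genes did. Abca1 stood at 99.1 and 79.7 CPM in the controls, on 19 and 13 UMIs, and at 164 and 396 CPM after LNP-Sirpa (1.60 ± 0.48, adjusted p = 0.0890). Pmvk stood at 88.6 and 85.8 CPM against 45.2 and 38.0 CPM (-1.06 ± 0.37, adjusted p = 0.125), and Mylip at 5.21 and 30.7 CPM against 55.1 and 54.0 CPM (1.65 ± 0.62, adjusted p = 0.157). In all 3 the groups did not overlap. Of the 12 genes 3 lay lower and 4 higher without overlap, beside 25.5% and 28.7% of all genes. The Abca1 difference passed once LNP-Sirpa replicate 1 was left out (2.14, adjusted p = 0.000239), Mylip (3.39) and Fdps (-1.62) without control replicate 2, and Fdft1 (7.23, against a control library without a UMI) without control replicate 1. Plin2 passed with all libraries, at 110 and 264 CPM against 969 and 1137 CPM (2.49 ± 0.39, adjusted p = 0.0121), as did Msr1, at 73.0 and 18.4 CPM against 185 and 222 CPM (2.08 ± 0.49, adjusted p = 0.0440). The gate itself differed between groups. Its 7 neutrophil markers summed to 24839 and 25951 CPM in the controls and 96823 and 65826 CPM after LNP-Sirpa, its macrophage markers to 4382 and 4343 against 6744 and 6277 CPM, and the lipid-associated markers to 1007 and 7028 against 63 and 152 CPM, and their part in these values was not tested.

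The treatment values in macrophages and CD8 T cells were then compared in 1 fit with an interaction term. Of the 27 genes 2 passed, both lower in macrophages relative to CD8 T cells, beside 3.28% of 14529 genes (1.93% higher, 1.36% lower). Mylip stood at 31.2, 46.2, 32.4 and 34.8 CPM in macrophages and 18.3, 14.998, 18.4 and 33.4 CPM in CD8 T cells, where the highest value is that of LNP-Sirpa replicate 2. The difference of the treatment effects was -1.03 ± 0.32 (adjusted p = 0.0382). Hmgcs1 stood at 45.8, 83.2, 70.9 and 124 CPM in CD8 T cells, again highest in LNP-Sirpa replicate 2, against 76.9 to 97.9 CPM in macrophages (-0.72 ± 0.23, adjusted p = 0.0474). All 18 enzymes had negative values (median -0.50, beside -0.01 over all genes). Without LNP-Sirpa replicate 2 neither passed (Mylip -0.63, Hmgcs1 -0.29, adjusted p = 0.888 and 0.983), without control replicate 2 neither did (-0.40 and -1.17) and Cyp51 passed (-1.68), without control replicate 1 Hmgcs1 did not (-0.51, adjusted p = 0.414), and without LNP-Sirpa replicate 1 Hmgcs1 read -1.14. The DESeq2 Wald test and the fit without a filter on low counts called neither. In the CD8 T sum of LNP-Sirpa replicate 2 the NK markers stood at 2863 CPM against 188 to 766 CPM in the others, and their part was not tested. Among wider-list genes Cd36 (1.35 ± 0.34) was positive, and Tmem97 (-1.26 ± 0.32), Lpin1 (-1.23 ± 0.33) and Arl4c (-0.996 ± 0.227) negative.

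The 2 LNP-Sirpa libraries differed from each other in synthesis. The summed level of the 18 enzymes, weighted toward the abundant ones, was 633 and 648 CPM in the controls of the monocyte/macrophage gate and 510 and 662 CPM after LNP-Sirpa. In CD8 T cells it was 454, 526, 451 and 773 CPM, in regulatory T cells 466, 552, 469 and 698 CPM, in NK cells 415, 524, 420 and 644 CPM, in mature dendritic cells 885, 1028, 612 and 1069 CPM, and in type 1 dendritic cells 784, 780, 581 and 1013 CPM. LNP-Sirpa replicate 2 was the higher of the treated pair by 1.30 times in macrophages, 1.71 times in CD8 T cells and 1.75 times in mature dendritic cells. It was higher in 17 of the 18 enzymes in macrophages and all 18 in CD8 T cells, where 51.8% and 50.6% of all genes were higher. Control replicate 2 was higher than control replicate 1 in 7 and 11 of the 18 in these gates, with sums in a ratio of 1.02 and 1.16. The controls also differed elsewhere. In NK cells control replicate 2 was higher in 15 of 18 (1.26 times) and LNP-Sirpa replicate 2 in 12 (1.53 times), and in mature dendritic cells the counts were 13 and 14. Neutrophils had 772, 429, 378 and 388 CPM, so that control replicate 1 stood apart there. Within macrophages the gap between the treated libraries was present in the monocyte subset (850, 823, 485 and 728 CPM, all 18 enzymes higher in replicate 2) and the inflammatory subset (640, 620, 354 and 468 CPM), was smaller in the resident-like subset (646, 641, 562 and 636 CPM), and was not seen in the lipid-associated subset (454, 512, 457 and 450 CPM, 10 of 18 higher). With 1 library on each side of this gap it has no test.

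**Figure D4:**
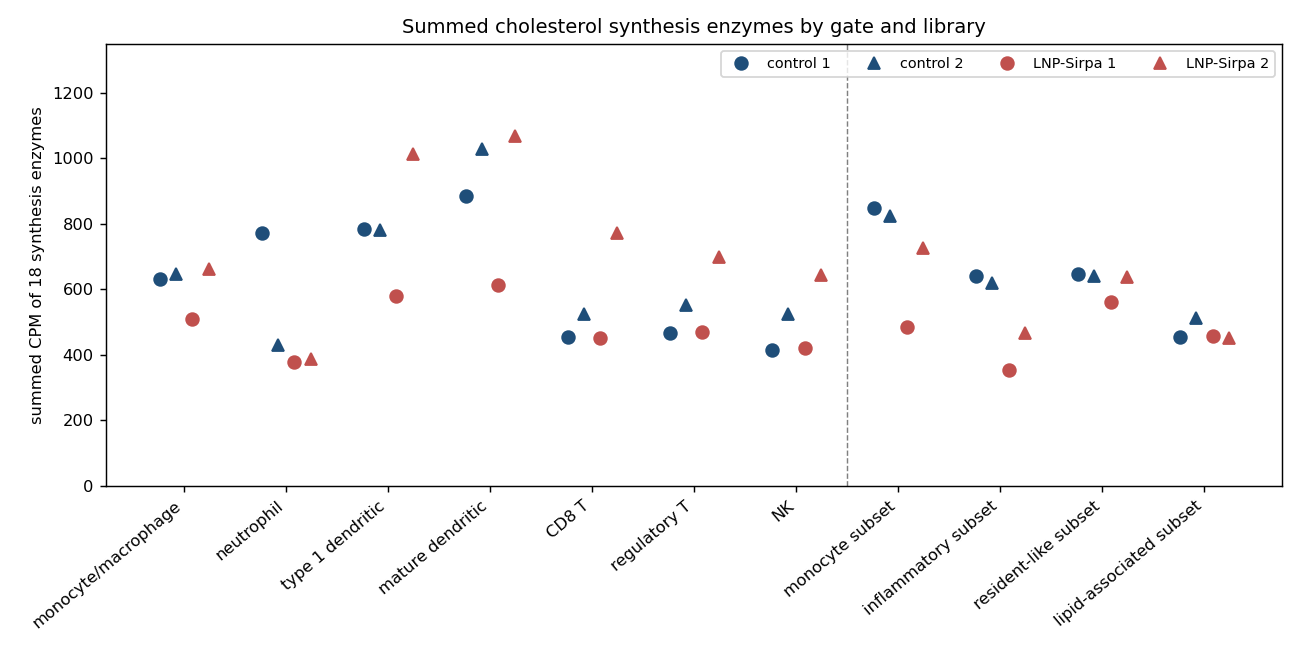
Summed level of the 18 synthesis enzymes (TMM-scaled CPM, vertical axis from 0) in 7 gates and, right of the dashed line, 4 subsets of the monocyte/macrophage gate. Each point is 1 library (circles replicate 1, triangles replicate 2; blue control, red LNP-Sirpa). LNP-Sirpa replicate 2 lies above replicate 1 in CD8 T cells (773 against 451 CPM), and the 4 libraries lie between 450 and 512 CPM in the lipid-associated subset.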

How the data were processed

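The deposited matrices hold UMI counts per gene and cell for 4 cDNA libraries, written with PISA 1.0 per the file headers. The submitters' processing notes name STAR 2.5.1b and GRCm39. How cells were called, and with which gene models, is not given in the sources used here. The 4 oligo libraries were not analysed here. The libraries held 68654004, 90789729, 85810250 and 70581678 UMIs, and their number limits the precision.

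A cell was kept from 500 UMIs and 300 genes upward if mitochondrial UMIs were no more than 15%. No doublet caller was run, and between 830 and 1242 cell names recur in each pair of libraries. Gates required a minimum of their own marker UMIs (10 for macrophages with at least 40 per 10000 UMIs, 5 for T and NK cells, 6 for dendritic cells, 15 for neutrophils) and set a maximum for the others. Between 2.24% (CD8 T) and 17.3% (type 1 dendritic) of the cells of a tested gate lay at or 1 UMI above its minimum, and for the inflammatory and resident-like subsets 30.3% and 18.5%. The marker list of the monocyte subset is not reported here in full. The B-cell gate, with 6 cells in LNP-Sirpa replicate 2, was not tested.

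UMI counts were summed per library and gate and tested in R 4.3.3 by the robust quasi-likelihood F test of edgeR 4.0.16, after filterByExpr and TMM, with Benjamini-Hochberg adjustment over all genes of a fit and a threshold of 0.05. Gates were compared with the library as a block. The SE is the log2 fold change divided by the square root of F. The fits were tested on simulated data. Alternatives were the DESeq2 1.42.0 Wald test, edgeR with DESeq2 size factors, every gene kept whatever its count, doubled marker minimums, a stricter cell filter (1000 UMIs, 500 genes, 10% mitochondrial), leaving out the 5% of cells with most UMIs, each library left out in turn and the replicate number as a block. Where a treated or control group is left with 1 library, that library is assumed to vary like the others.

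The members and lists were chosen with earlier results of these data known. Named genes followed a rule: members past the threshold in a treatment test, the 5 with the smallest p in the monocyte/macrophage gate, up to 5 largest differences in each comparison of gates at a mean of at least 20 CPM, and up to 2 or 3 genes per wider list with the smallest p. Other values were chosen after they were seen. Python 3.11.15 with numpy 2.4.6, pandas 2.3.3, scipy 1.17.1 and matplotlib 3.10.9 was used.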

Additional observations from a re-analysis of the deposited data

Results flagged for a closer look

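The treatment effect differed between macrophages and CD8 T cells in 2 of the 27 genes, by a test of the difference itself, beside 3.28% of 14529 genes. The effect in the monocyte/macrophage gate minus that in the CD8 T gate was -1.03 (log2) for Mylip and -0.72 for Hmgcs1 (edgeR interaction, adjusted p = 0.0382 and 0.0474). Both CD8 T values were highest in LNP-Sirpa replicate 2, and neither gene passed without that library, without control replicate 2, in the DESeq2 Wald test or with no filter on low counts. Each gene kept its call in 3 of 9 alternatives.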

How the results depend on the processing

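The count of members past the threshold moved as follows, beside the main counts in the report. For LNP-Sirpa against control it was 0 in all 6 gates, and became 1 in the resident-like subset alone, and in neutrophils 1 with no filter on low counts, 1 with the stricter gate and 1 with the replicate block. Leaving out single libraries gave from 0 to 1 in the dendritic, regulatory T and NK gates, from 0 to 2 in neutrophils, and 0 in the monocyte/macrophage and CD8 T gates. Acat2 turned positive in macrophages in the lipid-associated subset alone (0.0423) and the resident-like subset alone (0.0246). All-gene calls in macrophages were 212, and 1168 with DESeq2, 2007 with no filter, and 7 to 892 without single libraries. Between gates, leaving out single libraries gave 10 to 15 members for macrophages against CD8 T, 2 to 5 for dendritic gates, 1 to 2 for cycling CD8 T, 7 to 14 for cycling macrophages, 5 to 10 for the lipid-associated and 5 to 11 for the monocyte subset. Cycling CD8 T cells gave 0 with DESeq2 and 1 each with no filter, the stricter gate, top UMI cells left out and cells of 8000 to 16000 UMIs, and the monocyte subset 4 with the stricter gate. The interaction gave 1 with DESeq2 size factors, the stricter gate or top UMI cells left out, 0 with DESeq2 or no filter, and 0 to 2 without single libraries. The cause was not tested for these changes. Of the other values for single genes, 308 kept direction and call and 42 lost the call in the same direction.

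The replicate number as a block called 1 member in neutrophils and none in the other 5 gates. Deviations of same-numbered libraries correlated at 0.040 (macrophages), -0.099 (dendritic), 0.034 (neutrophils), 0.106 (CD8 T), -0.063 (regulatory T) and 0.353 (NK) across genes, and the labels do not pair the numbers. The small sums of neutrophils and type 1 dendritic cells limit the precision there.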
